A study of Mus musculus with 12 samples.

Results

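The synaptic vesicle and release machinery was followed through 35 genes, taken from the count table by their symbols. They are 11 genes of vesicle proteins, 7 of SNARE proteins and their recycling, 6 of calcium sensors and complexins, 8 of the active zone and of vesicle priming, and 3 of glutamate transporters and endocytosis. All 35 were found among the 24062 gene symbols of the table, and all 35 passed the filter on low counts that left 15440 genes for testing. They held between 1.23% and 1.75% of the counts of a library.

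RNA came from the cortex of mice aged 9 months, with 3 mice in each of 4 groups and 1 library per mouse. WT mice carried neither change. Tia1+/- mice carried 1 null allele of Tia1, which encodes an RNA binding protein of stress granules. PS19 mice had both Tia1 alleles and a transgene for human tau with the P301S mutation, of the isoform 1N4R, driven by the prion protein gene promoter. P301S Tia1+/- mice had the transgene and the null allele, and the breeding used littermates of a cross between P301S+/- Tia1+/- and Tia1+/- mice. The question of the study was how tau pathology alters the transcripts of the cortex, those of synaptic transmission among them, and how a reduction of TIA1 bears on that.

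A synaptic vesicle is filled with transmitter, brought to the active zone of the nerve terminal, primed, and fused with the membrane when calcium enters. Fusion is driven by the SNARE proteins on vesicle and membrane, held and released by complexins and synaptotagmins, and followed by retrieval of the membrane and by disassembly of the SNARE complex by NSF and the SNAPs. Loss of synapses is an early feature of mouse models with tau pathology, and proteins of this machinery are commonly used as its measure.

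The promoters of the genes had a higher median GC content than all promoters, with a wide range. RefSeq promoter windows on GRCm38.p6, from 250 bases before to 50 bases after the transcript start, were found for 29 of the 35 genes, and Rims2, Snap25, Syn3, Syngr3, Syt7 and Vamp2 had none. The median GC content of the 29 windows was 62.7%, with a range of 51.3% to 74.3%, and that of all 27025 windows was 52.7%. The GC box GGGCGG, searched on both strands, was present in 23 of the 29 windows, or 79.3%, and in 35.9% of all windows. The TATA box letters TATAAA were present in 1 of them, Sv2b, or 3.45%, and in 14.2% of all. TTCAGCACC, the left arm of the RE1 element that the neuronal gene repressor REST binds, was present in Unc13a and Syn1, or 6.90%, and in 0.359% of all, and the CRE letters TGACGTCA were present in Napa and Syn1, or 6.90%, and in 1.88% of all. These matches describe letters in the windows and no binding was measured here. The windows of Syn1 and Unc13a are shown because they hold the RE1 arm, and that of Synpr because its counts differed most clearly between the groups. Syn1 lies on chrX:20920869-20921168 on the minus strand, Unc13a on chr8:71671708-71672007 on the minus strand, and Synpr, at the first of its 2 listed starts, on chr14:13284530-13284829 on the plus strand. Each is printed in the direction of transcription, and capitals mark the GC box, the CRE and the RE1 arm in either orientation.
Syn1: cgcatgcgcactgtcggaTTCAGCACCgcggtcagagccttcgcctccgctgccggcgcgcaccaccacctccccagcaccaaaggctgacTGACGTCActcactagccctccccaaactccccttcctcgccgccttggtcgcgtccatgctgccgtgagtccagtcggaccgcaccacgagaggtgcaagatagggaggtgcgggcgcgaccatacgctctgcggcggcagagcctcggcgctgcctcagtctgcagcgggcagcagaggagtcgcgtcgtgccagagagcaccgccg
Unc13a: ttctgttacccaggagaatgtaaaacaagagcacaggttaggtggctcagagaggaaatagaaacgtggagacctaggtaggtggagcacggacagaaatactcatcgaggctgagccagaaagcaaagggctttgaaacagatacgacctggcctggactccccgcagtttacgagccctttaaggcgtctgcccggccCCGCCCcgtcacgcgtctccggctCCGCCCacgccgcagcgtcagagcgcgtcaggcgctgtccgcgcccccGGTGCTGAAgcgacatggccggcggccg
Synpr: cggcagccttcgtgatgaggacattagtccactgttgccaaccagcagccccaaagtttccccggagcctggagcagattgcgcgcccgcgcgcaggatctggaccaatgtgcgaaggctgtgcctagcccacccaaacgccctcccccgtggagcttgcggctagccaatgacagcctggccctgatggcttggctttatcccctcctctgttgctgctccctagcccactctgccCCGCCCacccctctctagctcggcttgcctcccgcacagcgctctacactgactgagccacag

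The counts of a library summed to between 11978962 and 19146484, and levels are given as CPM, that is counts relative to a library size of 1 M after TMM scaling. The level of Tia1 itself was 93.8, 76.8 and 75.4 CPM for the WT libraries and 61.4, 62.8 and 79.8 CPM for the Tia1+/- libraries. With the transgene it was 77.9, 70.8 and 71.9 CPM for PS19 and 72.6, 73.5 and 77.8 CPM for P301S Tia1+/-. The libraries labelled P301S Tia1+/- were thus not lower in Tia1 than those labelled PS19, and group names below are those of the library titles. In the sample records the genotype fields of Tia1+/- and P301S Tia1+/- are exchanged relative to their titles, and were those fields right, the sign of P301S Tia1+/- against Tia1+/- would turn and the comparisons of these groups with WT or with PS19 would change places. The interaction would then hold the turned comparison minus PS19 against WT. The 6 libraries labelled Tia1+/- or P301S Tia1+/- had 3304 to 5693 counts of Xist and at most 2 of Ddx3y, and the other 6 had at most 13 of Xist and 1605 to 2296 of Ddx3y. Sex-linked expression and the Tia1 label therefore cannot be told apart. PS19 against WT and P301S Tia1+/- against Tia1+/- each compare libraries that are alike in that expression. The study states that its mice were male except where noted, and it reads such a difference as regulation by TIA1. Neither the sex of the mice nor that reading was tested here.

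Markers of other brain regions moved with libraries and with a group. The 13 genes of olfactory axons and bulb summed to 1581 CPM in WT replicate 1 and to 1015, 1061 and 1171 CPM in the P301S Tia1+/- libraries, against 40.7 to 254 CPM in the other 8. The 10 striatal genes in the table summed to 2670 CPM in Tia1+/- replicate 3 and to 216 to 451 CPM elsewhere. The 9 markers of cortical excitatory neurons, such as Tbr1 and Neurod6, summed to 625 CPM in WT replicate 1, 995 CPM in Tia1+/- replicate 3 and 981 to 1137 CPM in P301S Tia1+/-, and to 1362 to 2060.1 CPM in the others. The 12 general neuron markers ranged less, from 3665 to 4590 CPM. The 10 interneuron markers summed to 1776 to 2206 CPM in WT replicate 1, Tia1+/- replicate 3 and P301S Tia1+/-. They summed to 1103 to 1395 CPM in the remaining libraries. The genes did not move alike: Gad1 was at 1222 CPM in WT replicate 1, where Pvalb was at 8.40 CPM. Without overlap, 5 of the 10 were higher and 4 lower in P301S Tia1+/- than in PS19. Against Tia1+/- it was 2 higher and 2 lower. The 7 oligodendrocyte markers summed to 3277 to 4282 CPM in Tia1+/-, above the 1808 to 2780.1 CPM of WT and the 2507 to 2756 CPM of P301S Tia1+/- for each of the 7 genes, and to 2382 to 4053 CPM in PS19. The 8 microglial markers summed to 276 to 463 CPM in PS19 and 224 to 251 CPM in WT, where 6 of the 8 were higher in every PS19 library. The 7 cerebellar genes summed to 100 CPM in WT replicate 1, 60.8 to 68.9 CPM in P301S Tia1+/- and 45.2 CPM in Tia1+/- replicate 3. Elsewhere they summed to 9.64 to 31.6 CPM. Of the 7, 4 were at most 1 CPM in every library, with Gabra6, Cbln3 and Pcp2 at most 0.902 CPM. One striatal symbol, 1 of 11, was not in the table. WT replicate 1 and Tia1+/- replicate 3 stand apart from their groups. Fold changes of the genes named for a small p, and counts of calls, are therefore also given without both, from 10 libraries. The P301S Tia1+/- libraries, also high in bulb genes, stay in that fit, where bulb content and that group cannot be told apart. Fits with bulb and striatal covariates lean mainly on WT replicate 1 and Tia1+/- replicate 3, the libraries furthest from their groups. For P301S Tia1+/- their values extrapolate, and they are not read as adjusted effects.

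**Figure D1:**
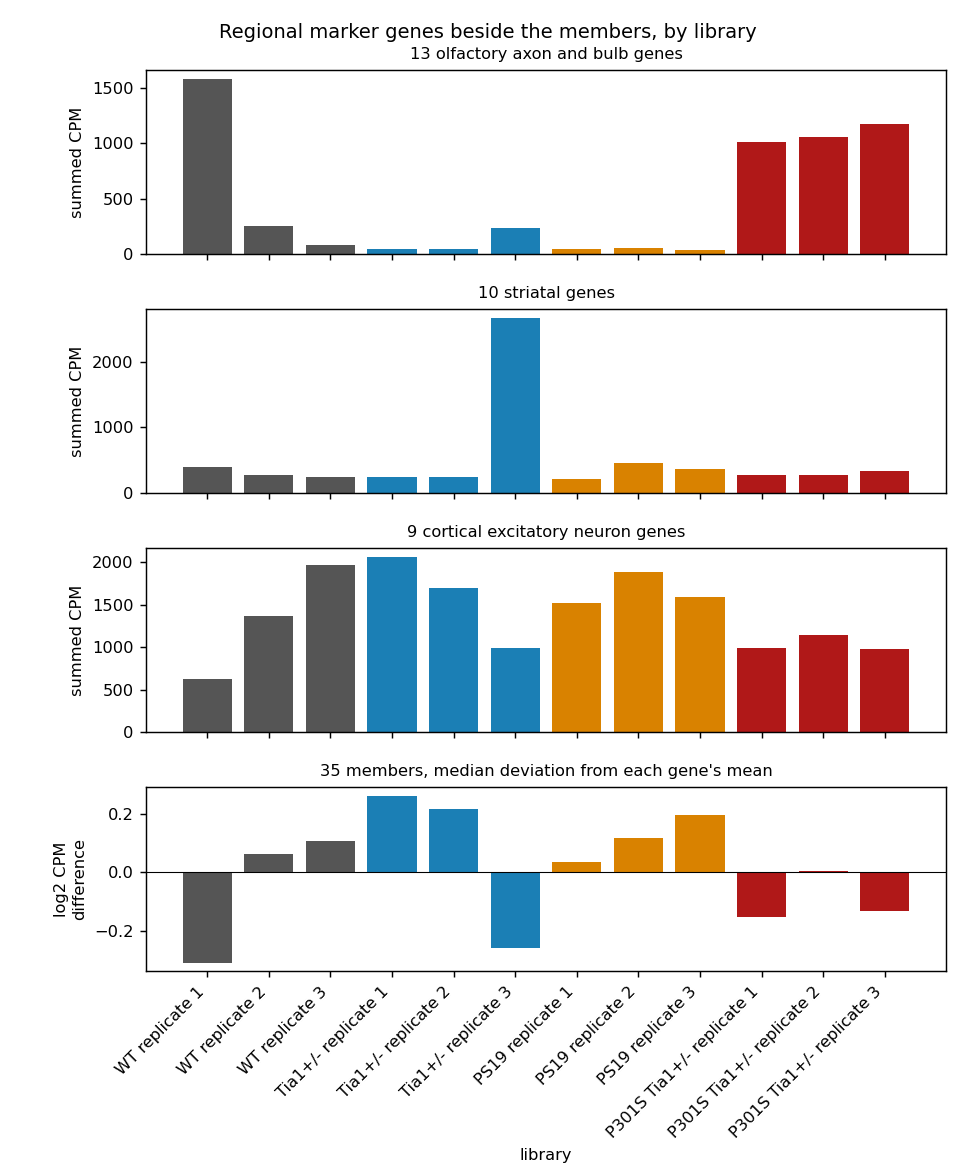
Summed CPM of 3 lists of regional marker genes (upper panels) and the median over the 35 genes of the log2 difference from each gene's mean (lowest panel), with 1 bar per library, coloured by group. WT replicate 1 at -0.31 and Tia1+/- replicate 3 at -0.26 were the lowest of the 12 in the lowest panel, and P301S Tia1+/- replicates 1 and 3 followed at -0.15 and -0.13.

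Both of these libraries were low in the machinery as well. WT replicate 1 had the lowest level of its group for 27 of the 35 genes, where 41% of all genes tested had theirs in that library. Tia1+/- replicate 3 had the lowest level of its group for 29 of the 35, against 41.5% of all genes tested. The exceptions in WT replicate 1 that were highest of their group were Syn3, Synpr, Syngr3, Sv2a and Sv2c, and in Tia1+/- replicate 3 they were Syn3, Synpr, Sv2c, Cplx2 and Unc13c. In tissue libraries, fewer terminals or cells of a type and less RNA in each of them cannot be told apart.

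Per kilobase of exon, the machinery spanned more than 2 orders of magnitude in cortex. The median over 12 libraries was 433 CPM per kb for Snap25, the membrane SNARE, 237 for Syt1, the sensor of fast release, 195 for Rab3a, a GTPase of vesicles, 162 for Cplx1 and 158 for Syp. At the lower end were Sv2c at 2.25 CPM per kb, Syn3 at 2.68, Unc13b at 2.91, Cplx3 at 3.15, Syt2 at 3.34, Sypl at 3.69 and Unc13c at 3.77. Of the transporters that load glutamate, Slc17a7 (VGLUT1) stood at 129 CPM per kb and Slc17a6 (VGLUT2) at 7.22. Within families the order was Syn2 above Syn1 above Syn3, at 58.8, 28.1 and 2.68, and Sv2b above Sv2a above Sv2c, at 118, 85.9 and 2.25. Vamp2 at 44.8 CPM per kb was above Vamp1 at 8.30. One gene, Syn3, overlaps another by over 10% of its exon length: 14.1% of its bases are shared with Timp3 on the opposite strand, and its counts carry that uncertainty because the strand setting of the counting is not given in the sources used here.

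**Figure D2:**
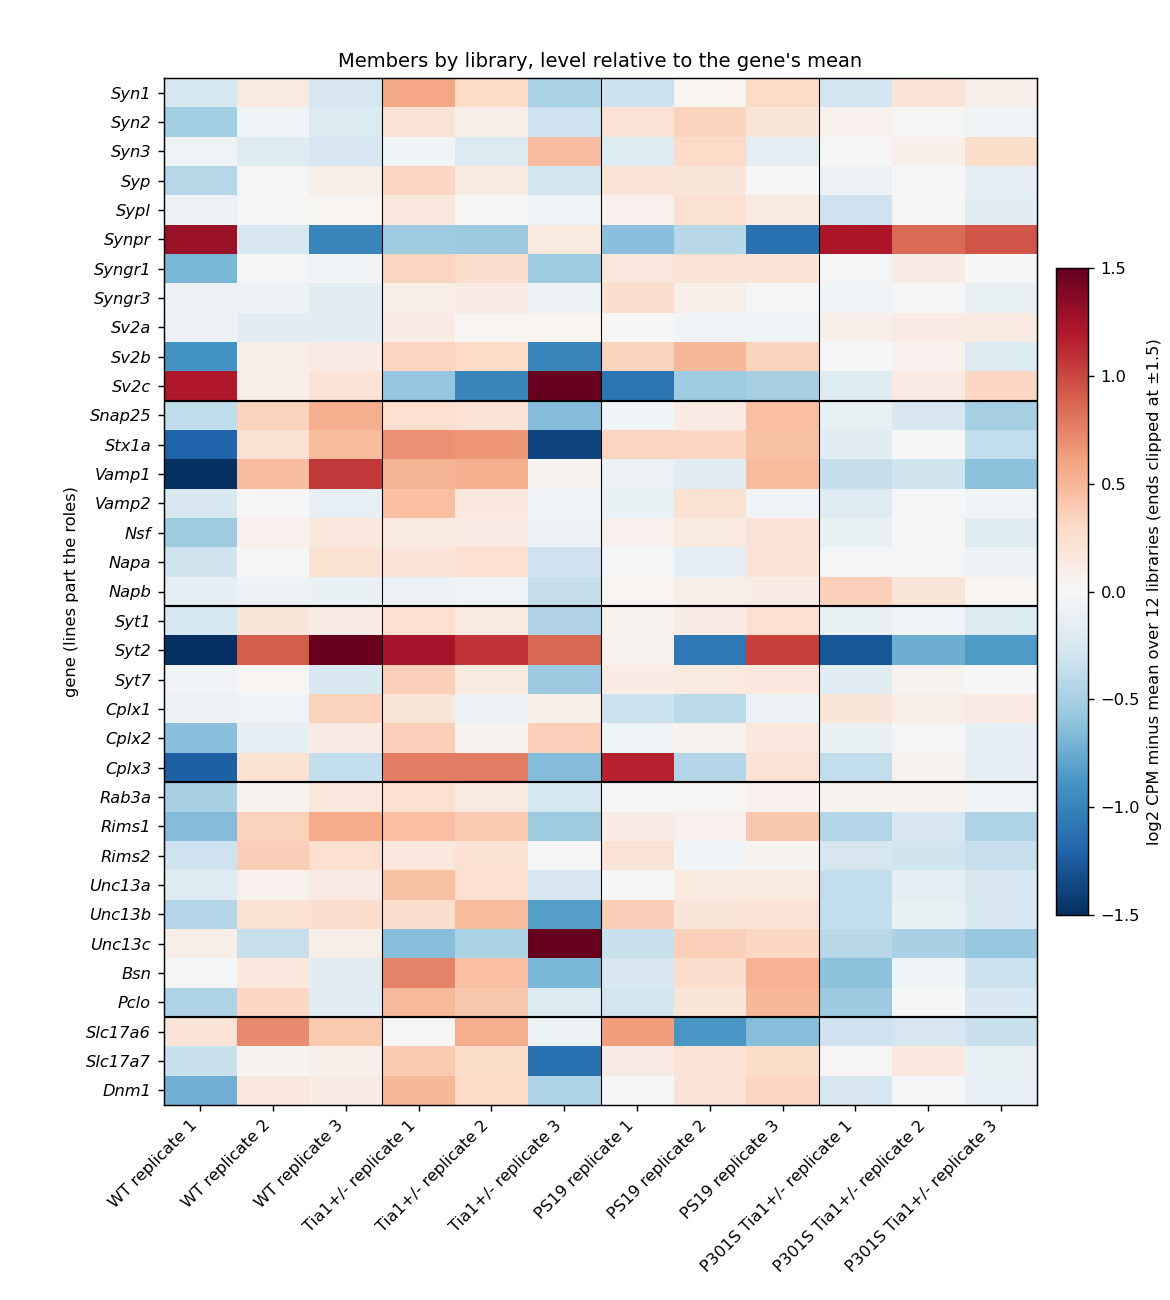
Level of each of the 35 genes (rows, grouped by role between lines) in each of the 12 libraries (columns), as log2 CPM minus the gene's mean over the libraries, with colours clipped at 1.5 either way. WT replicate 1 and Tia1+/- replicate 3 are blue in most rows, while Synpr is red in WT replicate 1 and in all 3 P301S Tia1+/- libraries.

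PS19 mice showed no gene of the machinery that passed the test against WT. By edgeR's quasi-likelihood test with Benjamini-Hochberg adjustment, 0 of the 35 passed 0.05, as did 0 of all genes tested (0%). DESeq2 called 0 of the 35 and 2.08% of 20738 genes. It was run without the filter on low counts, so its shares here and below are of more genes. With 12 libraries it gave no p for Sv2c and Unc13c in any comparison, so its counts there could not include them. In edgeR an unadjusted p under 0.05 was reached by 4 of the 35, 2 higher and 2 lower, against 16.3% of all genes (6.56% higher, 9.73% lower). The sign was higher in PS19 for 27 of the 35, where 49% of all genes were higher, with a median log2 fold change of 0.17 against -0.01 over all genes. In the 10 libraries the median was 0.06, with 23 of 35 higher. There 0 of the 35 passed and 0.476% of all genes. An unadjusted p under 0.05 was reached by 11 of the 35, against 17% of all genes (8.42% higher, 8.54% lower). Syngr1, Syngr3, Syt7, Syn2 and Sv2b were the 5 higher ones, and Rims1, Rims2, Syt2, Sv2c, Cplx1 and Vamp1 the 6 lower ones. DESeq2 on those 10 libraries called 4 of the 35 and 2.05% of all genes. The 4 went in both directions, with Syn2 at 0.37 and Cplx1 at -0.42 among them (adjusted p = 0.00258 and 0.0403 by DESeq2). With the bulb and striatal levels as covariates the median over the 35 was -0.071, with 14 of 35 higher.

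Vesicle proteins carried the 2 positive differences with the smallest p. Syn2, a synapsin that ties vesicles to the cytoskeleton, was at 283, 391 and 345 CPM in WT and at 468, 508 and 454 CPM in PS19. All PS19 libraries were above all WT libraries, and the log2 fold change was 0.49 (SE 0.14, adjusted p = 0.176 by edgeR), and 0.38 without the 2 libraries (adjusted p = 0.0688). Over all alternatives the adjusted p ran from 0.00258 to 0.492. Syngr3, a synaptogyrin of the vesicle membrane, was at 134, 134 and 127 CPM in WT and 171, 151 and 140 CPM in PS19, with a log2 fold change of 0.22 (SE 0.09, adjusted p = 0.263 by edgeR), and 0.24 from 10 libraries (adjusted p = 0.193). Its groups did not overlap either.

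Synpr and Cplx1 had the smallest p among those with lower means. Synpr, or synaptoporin, a relative of synaptophysin that marks only some synapses, was at 501, 173 and 102 CPM in WT and 132, 153 and 94.1 CPM in PS19. The WT value rests on replicate 1, the library high in bulb genes: the log2 fold change was -1.04 (SE 0.47, adjusted p = 0.303 by edgeR) with it and -0.12 without the 2 libraries (adjusted p = 0.822). Cplx1, a complexin that clamps and then supports fusion, was at 330, 338 and 447 CPM in WT and 280, 268 and 333 CPM in PS19. Its groups overlapped by 1 PS19 library, and the log2 fold change was -0.34 (SE 0.13, adjusted p = 0.24 by edgeR), and -0.42 in 10 libraries (adjusted p = 0.145). It was -0.17 without WT replicate 3 and -0.71 with the covariates, and the adjusted p ran from 0.0403, by DESeq2 on 10 libraries, to 0.578.

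Of the 35 genes, 10 had groups that did not overlap between PS19 and WT, 9 higher and 1 lower in PS19, against 20.8% of all genes (9.75% higher, 11% lower). The vesicle proteins made up 7 of these 10: Syn2, Sypl, Syngr1, Syngr3, Sv2a and Sv2b higher, and Sv2c lower. None of the 8 active zone and priming genes was among them. Sv2b, a glycoprotein of vesicles that is abundant in cortical excitatory terminals, was at 493, 984 and 1001 CPM in WT and 1151, 1293 and 1155 CPM in PS19. Sv2c, a form concentrated in basal ganglia, was at 51.8, 23.9 and 25.9 CPM in WT and 10.5, 15.5 and 16.0 CPM in PS19. Slc17a7 was at 513, 666 and 683 CPM in WT and 708, 750 and 788 CPM in PS19. The lowest WT value of Sv2b and of Slc17a7, and the highest of Sv2c, came from replicate 1. Without that library 12 of the 35 did not overlap, 9 higher and 3 lower, against 33% of all genes (15.7% higher, 17.3% lower).

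The SNAREs at the membrane had levels that overlapped between PS19 and WT. Snap25, whose splicing the study examined, was at 2196, 3607 and 4169 CPM in WT and 2782, 3103 and 3919 CPM in PS19. The groups overlapped throughout, and the log2 fold change was -0.02 (SE 0.27, adjusted p = 0.9747 by edgeR), -0.25 without the 2 libraries (adjusted p = 0.409) and -0.68 with the covariates. Gene counts do not separate the isoforms of Snap25. Stx1a, or syntaxin 1A, was at 80.3, 216 and 256 CPM in WT and 230.5, 229 and 250 CPM in PS19, so that 1 WT library was far below all others. Its log2 fold change was 0.36 with a 95% interval of -0.70 to 1.42 (SE 0.48, adjusted p = 0.733 by edgeR), and 0.0028 without the 2 libraries (SE 0.11, adjusted p = 0.993). The 95% interval of the log2 fold change lay above -0.5 for 25 of the 35 genes in PS19 against WT and included 0 for 31, with a median SE of 0.22, so for 10 of the genes a fall of that size could not be set aside at this depth and spread.

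**Figure D3:**
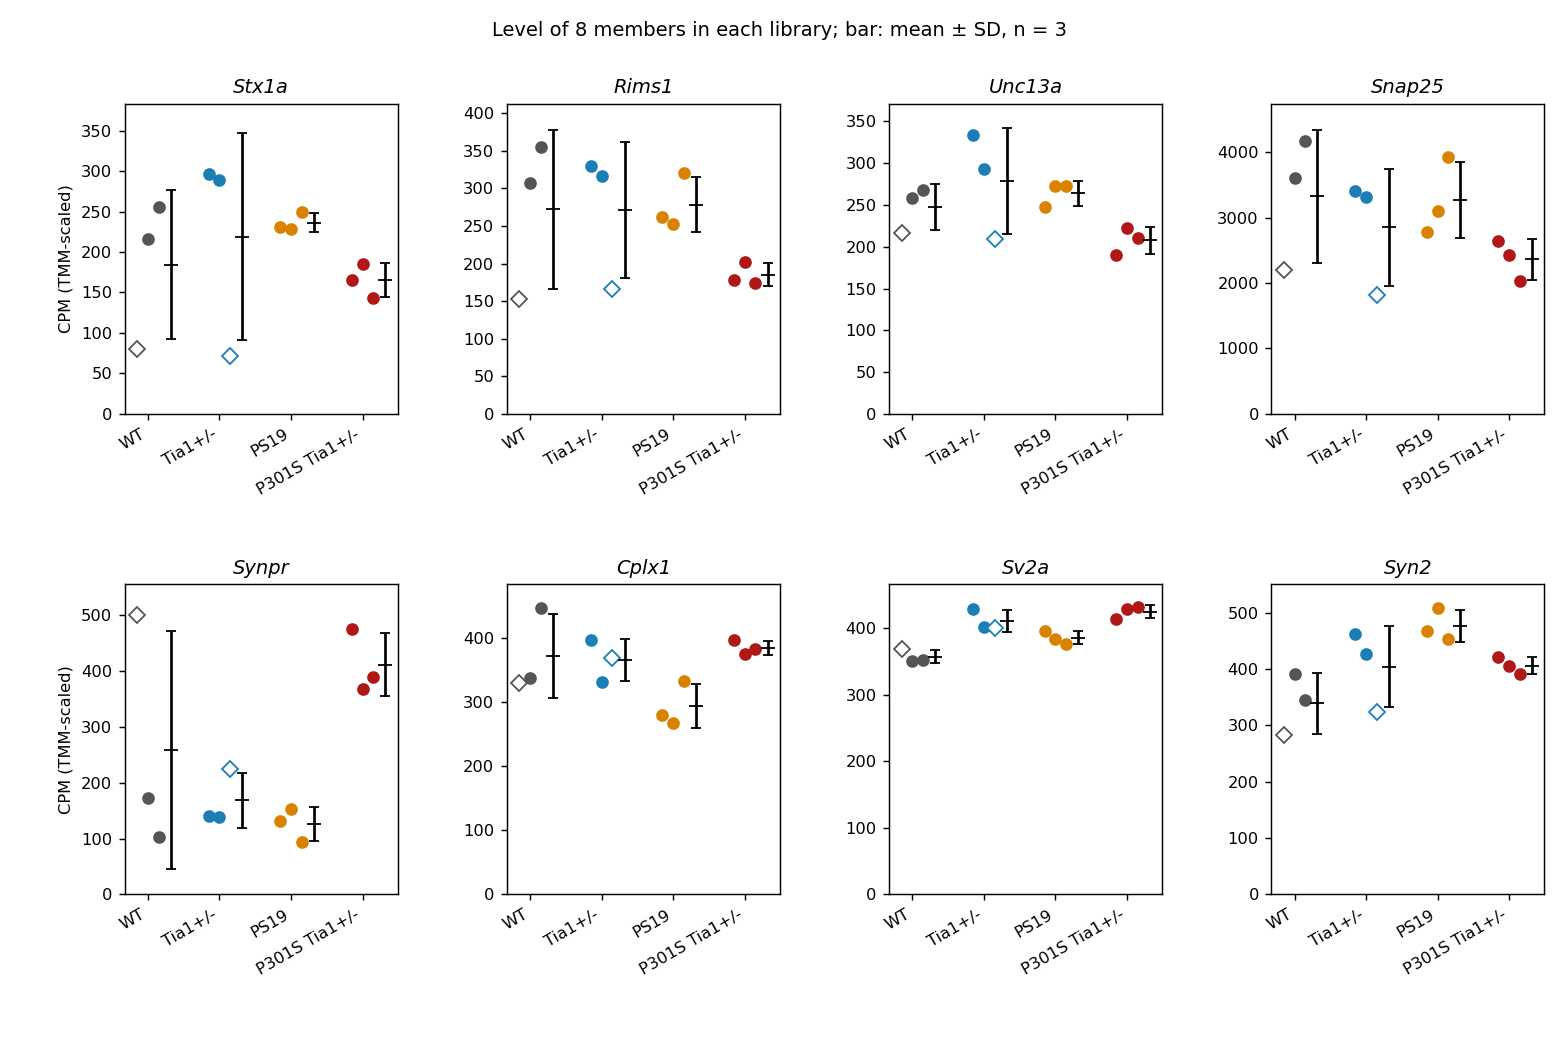
CPM of 8 genes in each library, with 1 panel per gene and groups on the horizontal axis, where points are libraries, open diamonds are WT replicate 1 and Tia1+/- replicate 3, and black bars are the mean ± SD of all 3. The open diamonds are the lowest points of Stx1a, Rims1, Unc13a and Snap25 in their groups and the highest of Synpr.

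The other measure of P301S tau, P301S Tia1+/- against Tia1+/-, shares no library with PS19 against WT. Here too 0 of the 35 genes passed (edgeR, 0% of all genes tested), and DESeq2 called 0 of the 35 and 2.01% of all. The sign ran the other way, with 28 of 35 lower where 48.9% of all genes were lower, and a median log2 fold change of -0.19 against 0.01 over all genes. It was -0.32 from the 10 libraries and turned to 0.22 with the bulb and striatal levels as covariates. The bulb genes summed to 42.7 to 235 CPM in Tia1+/- and to 1015 to 1171 CPM in P301S Tia1+/-, all 7 oligodendrocyte markers were lower in the latter, and their part in the result was not tested. At an unadjusted p under 0.05 there were 6 of the 35, 2 higher and 4 lower, against 15.6% of all (8.92% higher, 6.66% lower). Groups did not overlap for 7 of the 35, 2 higher and 5 lower, against 26% of all (14.9% higher, 11.1% lower). Without Tia1+/- replicate 3 there were 32, 4 higher and 28 lower, against 54.8% of all (28.2% higher, 26.6% lower). Across both measures, 22 of the 35 genes, or 62.9%, were higher with P301S tau on 2 Tia1 alleles and lower with it on 1 allele, a pattern that 30.7% of all genes had. From the 10 libraries it was 19 of 35, or 54.3%, against 24.7%. The share rests on the library titles: with the genotype fields exchanged, those 22 genes would be higher with P301S tau in both measures, and 5 would be higher and then lower.

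All 8 active zone and priming genes had a negative log2 fold change, with a median of -0.46, and 1 of the 8 had groups that did not overlap. From 10 libraries 7 of the 8 were negative, with a median of -0.61, and with the covariates 5 of the 8 were positive, with a median of 0.13. Rims2, a scaffold that holds calcium channels near vesicles, was at 317, 333 and 286 CPM in Tia1+/- and 240, 232 and 224 CPM in P301S Tia1+/-. The groups did not overlap, and the log2 fold change was -0.43 (SE 0.15, adjusted p = 0.241 by edgeR), -0.50 from 10 libraries (adjusted p = 0.00105) and 0.17 with the covariates. Unc13a, or Munc13-1, which primes vesicles and whose promoter holds the RE1 arm shown above, was at 334, 293 and 209 CPM in Tia1+/- and 191, 223 and 210 CPM in P301S Tia1+/-, with a log2 fold change of -0.42 (SE 0.15, adjusted p = 0.246 by edgeR), -0.61 from 10 libraries (adjusted p = 0.000418) and -0.19 with the covariates. Only the Tia1+/- library high in striatal genes overlapped with the other group. Unc13c, a form best known from cerebellum, was at 27.0, 30.2 and 228 CPM in Tia1+/- and 31.4, 29.99 and 28.4 CPM in P301S Tia1+/-. Its log2 fold change of -1.67 (SE 0.66, adjusted p = 0.27 by edgeR) rests on Tia1+/- replicate 3 and was 0.05 without the 2 libraries.

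Syt2, Synpr and Napb had the other small p-values. Syt2, the fast calcium sensor of a subset of neurons that includes many parvalbumin interneurons, was at 42.0, 38.0 and 32.3 CPM in Tia1+/- and 7.36, 10.8 and 9.93 CPM in P301S Tia1+/-. Its groups were far apart, and the log2 fold change was -1.998 (SE 0.76, adjusted p = 0.258 by edgeR), -2.11 from 10 libraries (adjusted p = 0.00319) and 2.70 with the covariates. In the other groups it ranged widely, at 2.56, 33.7 and 52.9 CPM in WT and 18.6, 8.49 and 36.3 CPM in PS19. Pvalb, the marker of those interneurons, was at 67.7, 80.5 and 23.3 CPM in Tia1+/-, 26.9, 23.5 and 24.5 CPM in P301S Tia1+/-, and 8.40 CPM in WT replicate 1. Synpr was at 141, 139 and 225 CPM in Tia1+/- and 476, 368 and 390 CPM in P301S Tia1+/-, with a log2 fold change of 1.29 (SE 0.47, adjusted p = 0.249 by edgeR), 1.54 from 10 libraries (adjusted p = 0.000498) and -1.10 with the covariates. Napb, or beta-SNAP, which brings NSF to used SNARE complexes, was at 879, 913 and 730 CPM in Tia1+/- and 1206, 1064 and 961 CPM in P301S Tia1+/-. Both Synpr and Napb were higher in every P301S Tia1+/- library, and for Napb the log2 fold change was 0.36 (SE 0.11, adjusted p = 0.201 by edgeR) and 0.25 from 10 libraries (adjusted p = 0.0745).

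How many genes passed depended on the libraries in the fit. Without WT replicate 1 and Tia1+/- replicate 3, 21 of the 35 passed in P301S Tia1+/- against Tia1+/-, 2 higher and 19 lower, where 23.4% of all genes did (11.5% higher and 11.9% lower). Stx1a fell to 166, 185 and 143 CPM in P301S Tia1+/- from 297 and 290 CPM in the 2 Tia1+/- libraries kept, with a log2 fold change of -0.84 (SE 0.11, adjusted p = 0.000214 by edgeR). The third Tia1+/- library was at 71.1 CPM, below all of these, and with it the adjusted p was 0.706. Rims1 fell by 0.82 (SE 0.11, adjusted p = 0.000304 by edgeR), Bsn, the scaffold bassoon, fell by 0.94, and Vamp1, the vesicle SNARE of fast-firing neurons, fell by 0.95. The library left out was at 167 CPM for Rims1 and 136 CPM for Bsn, below all P301S Tia1+/- libraries. For Vamp1 it was at 87.9 CPM, above them. With 12 libraries the log2 fold changes were -0.55, -0.61 and -0.79 (adjusted p = 0.393, 0.365 and 0.429 by edgeR). Synpr rose by 1.54 and Sv2c by 0.86. In the fit of 10 libraries 8 of the 9 cortical excitatory neuron markers passed as lower, with a median over the 9 of -0.79. The median over the 35 genes was -0.32, and the part of tissue composition in these differences was not tested. The 6 libraries of both groups alone gave 4 of the 35 and 2.22% of all genes. Deviations of same-numbered libraries of these groups correlated weakly, at 0.12, 0.15 and 0.25. Over the 18 same-numbered pairs of all groups the median was -0.074, with a range of -0.55 to 0.39. With the number as a replicate block 2 of the 35 passed, Syt2 and Vamp1, and 0.964% of all genes.

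**Figure D4:**
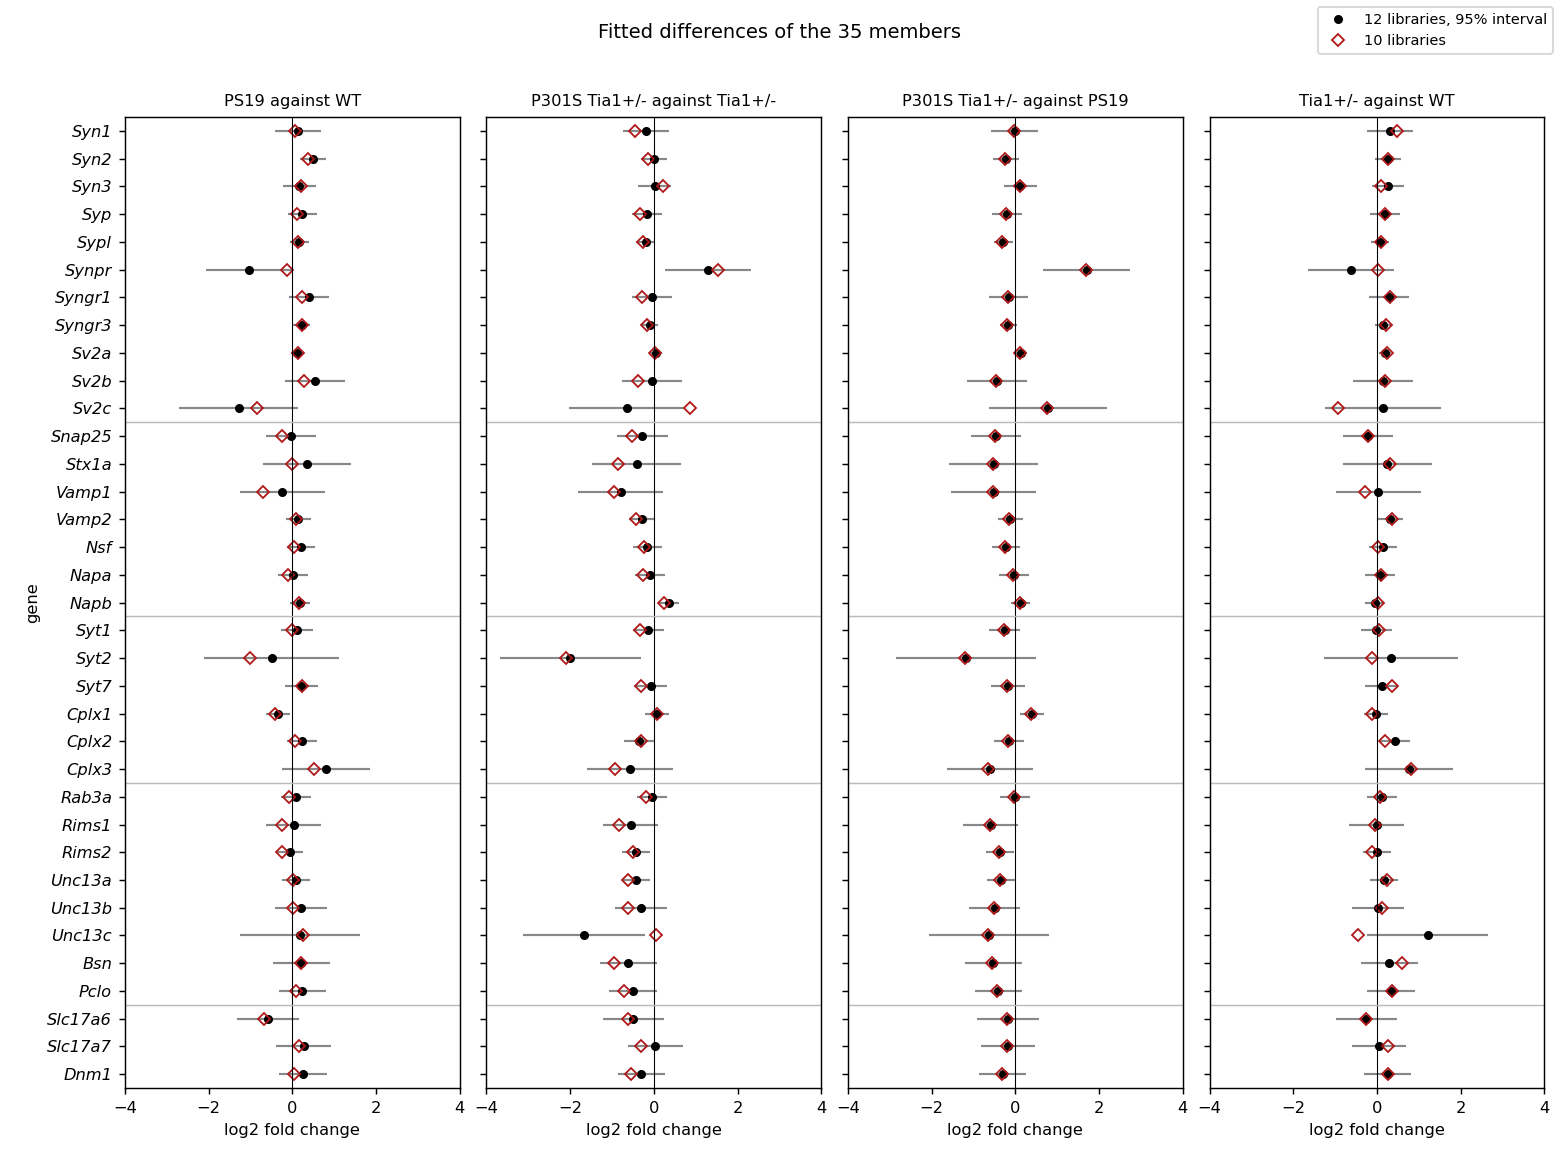
Log2 fold change of each of the 35 genes in 4 comparisons, where black points with lines are the fit of 12 libraries with its 95% interval and open diamonds are the fit of 10 libraries without WT replicate 1 and Tia1+/- replicate 3. In P301S Tia1+/- against Tia1+/-, 28 of 35 black points lie below 0, and in PS19 against WT 27 of 35 lie above.

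The Tia1+/- label on the tau background was compared in P301S Tia1+/- against PS19. As given above, Tia1 itself was not lower in P301S Tia1+/-, and the label and sex-linked expression cannot be told apart. With all 12 libraries 0 of the 35 genes passed, where 0.24% of all genes did, and DESeq2 called 1, Synpr, against 3.88% of all. At an unadjusted p under 0.05 there were 5, 2 higher and 3 lower, against 19.3% of all genes (11.7% higher, 7.62% lower). The sign was lower in the libraries labelled P301S Tia1+/- for 29 of the 35, where 48.5% of all genes were lower, and the median log2 fold change was -0.23 against 0.01. Groups did not overlap for 21 of the 35, 4 higher and 17 lower, against 38.5% of all genes, with 20.2% higher and 18.2% lower.

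Synpr differed most. It was at 132, 153 and 94.1 CPM in PS19 and 476, 368 and 390 CPM in P301S Tia1+/-, so that every library of one group was above every library of the other. The log2 fold change was 1.71 (SE 0.47, adjusted p = 0.121 by edgeR), 1.68 without the 2 libraries (adjusted p = 0.000105), and the adjusted p was 0.00747 by DESeq2 and ran from 1.21e-09 to 0.303 over the alternatives. Synpr was also at 501 CPM in WT replicate 1, which resembled the P301S Tia1+/- libraries in bulb genes: Omp, a marker of olfactory axons, was at 162 CPM there and at 72.6, 135 and 133 CPM in P301S Tia1+/-, and between 0.26 and 18.9 CPM in all others. With bulb and striatal levels as covariates, the log2 fold change of Synpr was -1.03.

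Cplx1 was the other gene with a higher level and a small p. It was at 280, 268 and 333 CPM in PS19 and 396, 375 and 383 CPM in P301S Tia1+/-, with no overlap and a log2 fold change of 0.39 (SE 0.13, adjusted p = 0.16 by edgeR), and 0.36 from 10 libraries (adjusted p = 0.0394). The 3 lower genes were Sypl, a synaptophysin-like protein found in many tissues, Rims2 and Unc13a. Sypl was at 31.7, 35.8 and 33.4 CPM in PS19 and 24.5, 30.7 and 27.2 CPM in P301S Tia1+/-, a log2 fold change of -0.29 (SE 0.10, adjusted p = 0.171 by edgeR), and -0.31 from 10 libraries (adjusted p = 0.0314). Rims2 was at 326, 277 and 294 CPM in PS19, above all P301S Tia1+/- libraries, with a log2 fold change of -0.36 (SE 0.15, adjusted p = 0.223 by edgeR), -0.39 from 10 libraries (adjusted p = 0.0027) and 0.33 with the covariates. Unc13a was at 247, 273 and 272 CPM in PS19 and likewise higher in each, with a log2 fold change of -0.35 (SE 0.15, adjusted p = 0.246 by edgeR), and -0.37 from 10 libraries (adjusted p = 0.00509).

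Snap25 was at 2637, 2423 and 2025 CPM in P301S Tia1+/-, all below the lowest PS19 library at 2782 CPM, with a log2 fold change of -0.47 (SE 0.27, adjusted p = 0.364 by edgeR), -0.49 from 10 libraries (adjusted p = 0.0178) and 0.64 with the covariates. All 8 active zone and priming genes had a negative sign, with a median of -0.45, and 5 of the 8 did not overlap. Without the 2 libraries, neither of which belongs to these groups, 20 of the 35 passed, 3 higher and 17 lower, where 22.9% of all genes did (10.8% higher, 12.1% lower), and with only the 6 libraries of both groups 11 passed and 20.1% of all. The fold changes moved little while the errors shrank. Rims1 was at -0.59 (SE 0.30, adjusted p = 0.308 by edgeR) with 12 libraries and at -0.61 (SE 0.10, adjusted p = 0.00102 by edgeR) with 10. The 3 that rose in the 10-library fit were Synpr, Sv2c and Cplx1, and Unc13c, Rims1, Bsn, Stx1a, Vamp1, Unc13b and Snap25 fell by 0.49 to 0.65, with Syt2 at -1.21. The 9 cortical excitatory neuron markers all had a negative sign in this comparison, with a median of -0.64 in 12 libraries, and the bulb genes were at 40.7 to 52.7 CPM in PS19 against 1015 to 1171 CPM in P301S Tia1+/-. Their part in the result was not tested, and with those levels as covariates the median over the 35 genes was 0.16.

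On the background without tau, Tia1+/- against WT gave 0 of the 35 genes by edgeR, where 0.712% of all genes passed, and 1 by DESeq2, Sv2a, against 4.63% of all. 3 genes had an unadjusted p under 0.05, all higher in Tia1+/-, against 19.1% of all genes (8.63% higher, 10.5% lower). Of the 35, 28 were higher where 50.7% of all genes were, with a median log2 fold change of 0.15, which was 0.12 from 10 libraries and -0.015 with the covariates. The 7 oligodendrocyte markers were all higher in Tia1+/- without overlap, and their part in the result was not tested. Only 1 of the 35 had groups that did not overlap, against 20% of all genes (9.6% in this direction). With the 2 libraries left out, 2 remained in each group, and 21 did not overlap, 17 higher and 4 lower, against 52.5% of all (26% higher, 26.5% lower). The 1 gene was Sv2a, the vesicle glycoprotein that the drug levetiracetam binds, at 369, 351 and 352 CPM in WT and 429, 401 and 400 CPM in Tia1+/-. Its log2 fold change was 0.20 (SE 0.07, adjusted p = 0.143 by edgeR and 0.00934 by DESeq2, and between 0.00934 and 0.447 over all alternatives), and 0.23 from 10 libraries (adjusted p = 0.109 by edgeR). Sv2a, with the smallest SE of the 35, was at 396, 384 and 377 CPM in PS19 and 414, 429 and 433 CPM in P301S Tia1+/-, so both groups with 1 Tia1 allele lay above both groups with 2. The label and sex-linked expression cannot be told apart in this order.

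Cplx2 and Vamp2 were the other genes with small p-values in Tia1+/- against WT. Cplx2, the main complexin of cortical excitatory neurons, was at 440, 619 and 737 CPM in WT and 867, 697 and 869 CPM in Tia1+/-, a log2 fold change of 0.44 (SE 0.16, adjusted p = 0.183 by edgeR), 0.20 from 10 libraries (adjusted p = 0.411) and -0.20 with the covariates. Vamp2, the main vesicle SNARE, was at 150, 176 and 162 CPM in WT and 242, 197 and 171 CPM in Tia1+/-, a log2 fold change of 0.32 (SE 0.13, adjusted p = 0.225 by edgeR), and 0.37 from 10 libraries (adjusted p = 0.137). Groups overlapped for both. In the 10-library fit 0 of the 35 passed, against 1.72% of all genes, and DESeq2 called 4 and 3.41% of all. An unadjusted p under 0.05 was reached by 13 of the 35 there, 12 higher and 1 lower, against 19.1% of all genes (8.55% higher, 10.5% lower).

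The interaction term asked whether the difference that goes with the Tia1+/- label was the same with and without P301S tau. Here too the label and sex-linked expression cannot be told apart. By edgeR 0 of the 35 passed, where 0.00648% of all genes did, and DESeq2 called 1, Synpr, against 5.82% of all. Of the 35, 8 had an unadjusted p under 0.05, 2 higher and 6 lower, against 22.9% of all genes (13.6% higher, 9.28% lower). The median over the 35 was -0.37, with 30 of 35 negative where 49.5% of all genes were. It was -0.41 from the 10 libraries and turned to 0.33 with the bulb and striatal levels as covariates, where 14 of 35 were negative. Bulb genes were high and cortical excitatory neuron markers low in P301S Tia1+/-, as given above, and their part in the term was not tested. The term for Synpr was 2.33 (SE 0.66, adjusted p = 0.0904 by edgeR and 0.00794 by DESeq2), and for Cplx1 it was 0.41 (SE 0.18, adjusted p = 0.207 by edgeR). On the negative side Cplx2 was at -0.58 (SE 0.23, adjusted p = 0.174 by edgeR), Unc13a at -0.52 (SE 0.21, adjusted p = 0.186 by edgeR) and Syn2 at -0.48 (SE 0.20, adjusted p = 0.186 by edgeR). Vamp2 at -0.44, Sypl at -0.36 and Syngr3 at -0.32 had adjusted p-values of 0.197, 0.173 and 0.173 by edgeR. With the covariates the terms of Synpr and Cplx2 turned to -2.25 and 1.04, and those of Cplx1, Unc13a and Syn2 were 1.28, -0.12 and -0.019. From 10 libraries Synpr at 1.66, Unc13a at -0.62, Syn2 at -0.52 and Syngr3 at -0.41 passed (adjusted p = 0.00436, 0.00692, 0.0125 and 0.0411 by edgeR). Cplx1 at 0.48, Cplx2 at -0.37, Vamp2 at -0.51 and Sypl at -0.40 did not (adjusted p = 0.106, 0.154, 0.054 and 0.101 by edgeR). From 10 libraries 15 passed, 2 higher and 13 lower, where 13.5% of all genes did (6.93% higher, 6.6% lower), and without Tia1+/- replicate 3 alone 2 passed, Sv2c and Unc13a.

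Related genes were also compared as ratios within a library, which depth and scaling do not alter. Cplx1 over Cplx2 was 0.75, 0.55 and 0.61 in WT against 0.43, 0.38 and 0.44 in PS19. With 1 Tia1 allele the order was the opposite, at 0.46, 0.47 and 0.43 for Tia1+/- against 0.63, 0.56 and 0.63 for P301S Tia1+/-. With the genotype fields in place of the titles, the libraries with tau would be lower on both backgrounds. WT and P301S Tia1+/- overlapped with each other and lay above both other groups, and this order did not depend on the 2 libraries that stand apart. Synpr over Syp was 0.62, 0.45 and 0.52 in P301S Tia1+/- and 0.11 to 0.16 in PS19, and it reached 0.82 in WT replicate 1 and 0.33 in Tia1+/- replicate 3. Sv2c over Sv2b was 0.11 and 0.19 in those 2 libraries, 0.02 to 0.04 in P301S Tia1+/- and 0.01 in each PS19 library. Unc13c over Unc13a was 1.09 in Tia1+/- replicate 3 and 0.08 to 0.21 in all others. Vamp1 over Vamp2 was 0.19 in WT replicate 1 and 0.67 and 1.10 in the other WT libraries. These ratios are descriptions and were not tested.

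**Figure D5:**
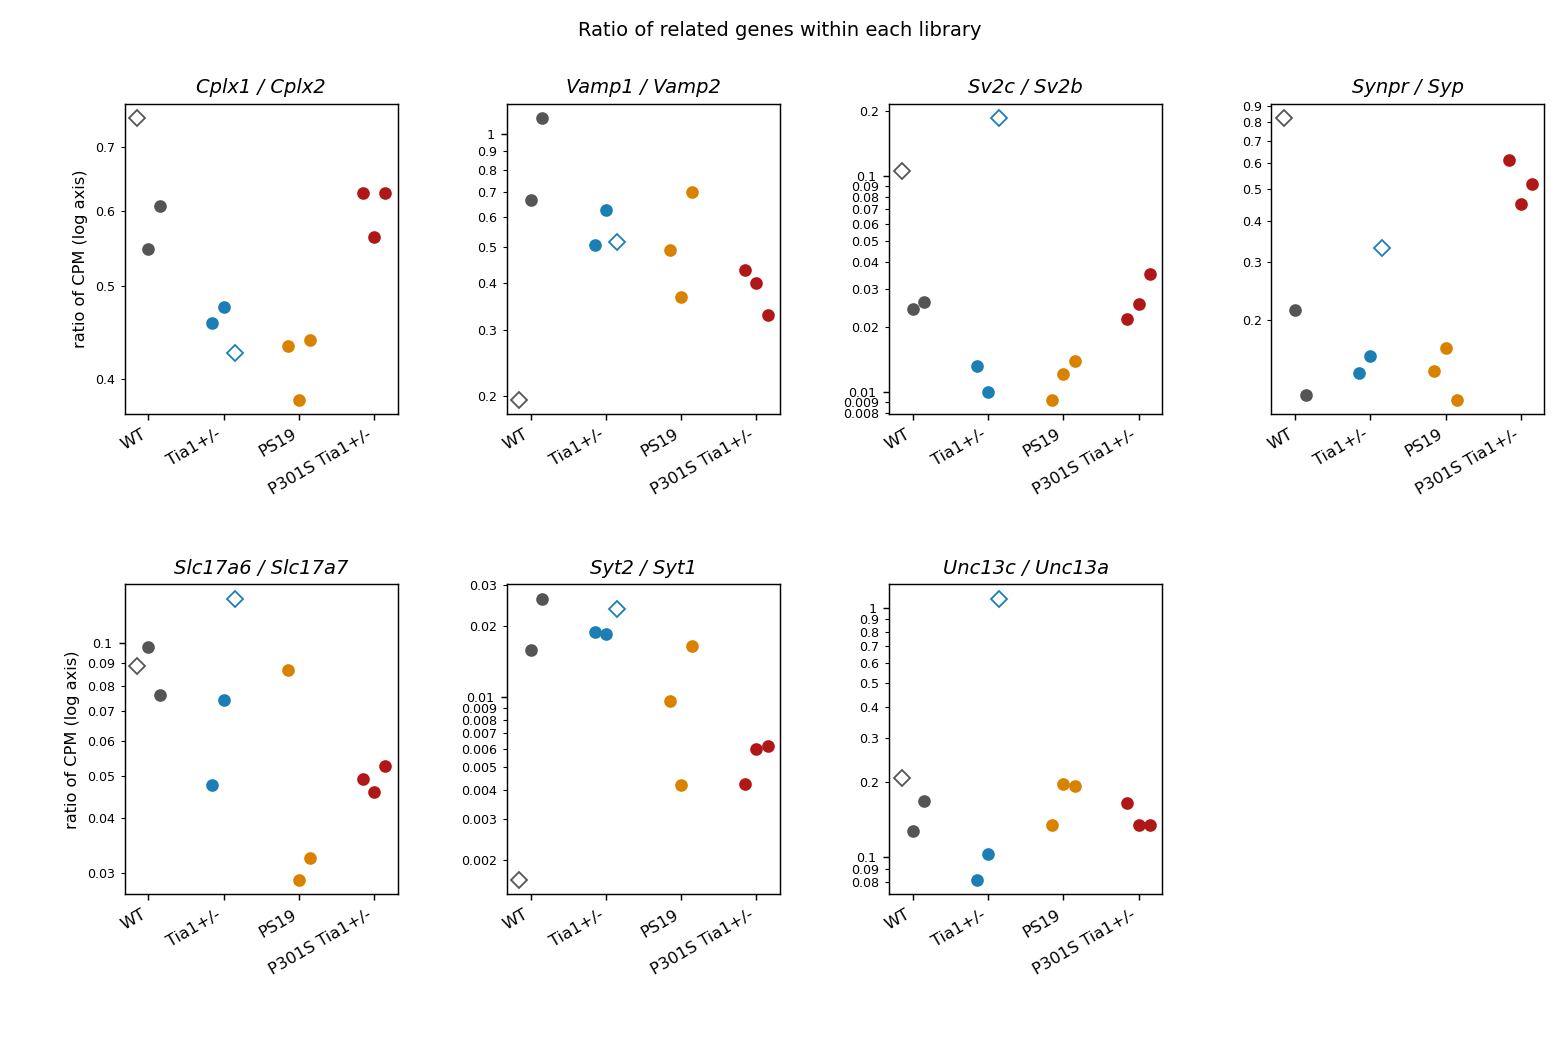
Ratio of the CPM of 2 related genes in each library, on a log axis, with 1 panel per pair and groups on the horizontal axis, where open diamonds are WT replicate 1 and Tia1+/- replicate 3. Cplx1 over Cplx2 was 0.38 to 0.47 in all PS19 and Tia1+/- libraries and 0.55 to 0.75 in all WT and P301S Tia1+/- libraries.

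The 2 remaining pairs of groups differ in both tau and the Tia1 label. In P301S Tia1+/- against WT 0 of the 35 passed by edgeR, against 1.31% of all genes. At an unadjusted p under 0.05 there were 4, against 18% of all, and DESeq2 called 1, Sv2a, against 4.74%. From 10 libraries 11 passed, against 25.8% of all. In PS19 against Tia1+/- 0 passed, against 0.0712% of all genes. There were 2 at an unadjusted p under 0.05, against 4.81%, and DESeq2 called 0, against 0.178%. From 10 libraries 0 passed there, against 0.283%.

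A wider list of presynaptic genes was tested beside the 35. Tested were 98 of 102 listed genes. By edgeR 0 of them passed in PS19 against WT, P301S Tia1+/- against PS19, Tia1+/- against WT, P301S Tia1+/- against Tia1+/- or the interaction. Of all genes 0%, 0.24%, 0.712%, 0% and 0.00648% did. In that order 17, 26, 12, 16 and 29 had an unadjusted p under 0.05, against 16.3%, 19.3%, 19.1%, 15.6% and 22.9% of all genes. DESeq2 called 2, 6, 7, 4 and 7, against 2.08%, 3.88%, 4.63%, 2.01% and 5.82% of all. The smallest p in PS19 against WT were those of Syt17 and Rab3d, with log2 fold changes of 0.75 and 0.76 (adjusted p = 0.157 and 0.174 by edgeR). In P301S Tia1+/- against PS19 they were those of Dnm2, the ubiquitous dynamin, at 0.56, and Erc1, an active zone protein, at -0.34 (adjusted p = 0.0914 and 0.0921 by edgeR). Snap29 at -0.51 and Slc18a2, the vesicular monoamine transporter, at -0.63 led Tia1+/- against WT (adjusted p = 0.0696 and 0.0807 by edgeR). Ppfia2, a liprin of the active zone, at 0.57 and Cacna1e, a calcium channel, at -0.48 led P301S Tia1+/- against Tia1+/- (adjusted p = 0.178 for both by edgeR), and they also led the interaction, at 0.90 and -0.85 (adjusted p = 0.0674 and 0.0618 by edgeR). In the fit of 10 libraries 43 of the 98 passed in P301S Tia1+/- against PS19, against 22.9% of all genes. In P301S Tia1+/- against Tia1+/- 44 passed, against 23.4% of all.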

How the data were processed

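RNA of 12 cortex libraries was prepared with a stranded total RNA kit from 100 ng per library. The authors aligned paired reads to mm10 (TopHat2 2.0.6 per the labels) and deposited raw read counts per gene symbol from featureCounts. The annotation, the strand setting and the treatment of reads with several alignments are not given in the sources used here. Libraries were grouped by title. Counts were scaled by TMM, filtered with filterByExpr and tested with edgeR 4.0.16 in R 4.3.3 (quasi-likelihood, all 12 libraries, Benjamini-Hochberg over 15440 genes, threshold 0.05), with DESeq2 1.42.0 as an alternative. On simulated data for PS19 against WT with 15440 genes, edgeR recovered 61% of 200 genes changed 2-fold and DESeq2 71.5%, with 9 and 41 false calls. The 35 genes and all lists were chosen with earlier results of these data known. A gene of the cortical excitatory neuron list is not reported here and was left out of its values. In each comparison a fold change is given for up to 8 of the genes with an unadjusted p under 0.05, and for Snap25 in 2 comparisons. Genes outside this rule, such as Stx1a and Rims1, were chosen after their values were seen. Libraries of 3 mice per group cannot reach a permutation p below 0.1. Gene positions and overlaps are from GENCODE on GRCm38.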

Additional observations from a re-analysis of the deposited data

How the results depend on the processing

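Values are given in the order PS19 against WT, P301S Tia1+/- against PS19, Tia1+/- against WT, P301S Tia1+/- against Tia1+/- and the interaction. The edgeR fit of 12 libraries passed 0, 37, 110, 0 and 1 of all genes and 0 of the 35 genes of the release machinery in each. DESeq2 passed 431, 805, 960, 416 and 1206 genes, with 1 of the 35 in the second, in the third, in the fifth and in P301S Tia1+/- against WT, and 2, 6, 7, 4 and 7 other presynaptic genes. Without WT replicate 1 and Tia1+/- replicate 3, edgeR passed 74, 3569, 267, 3646 and 2106 genes from the 10 libraries left. Of the 35 it passed 0, 20, 0, 21 and 15, with 11 in P301S Tia1+/- against WT. Of the other presynaptic genes it passed 0, 43, 0, 44 and 30. The P301S Tia1+/- libraries, also high in bulb genes, stayed in that fit. DESeq2 on those 10 libraries, added after the data were seen, passed 420, 3352, 701, 3446 and 2206 genes, 4, 17, 4, 23 and 17 of the 35, with 14 in P301S Tia1+/- against WT and 1 in PS19 against Tia1+/-, and 3, 46, 7, 42 and 32 other presynaptic genes. With only the libraries compared, the numbers of genes were 3025, 6 and 334 in the second, the third and the fourth, those of the 35 were 11 and 4 in the second and the fourth, and those of other presynaptic genes 36 and 2. With bulb and striatal levels as covariates they were 70, 357, 30, 154 and 97 genes, 1, 2, 1, 1 and 1 of the 35, with 9 in P301S Tia1+/- against WT, and 2, 5, 2 and 1 other presynaptic genes in the first, the second, the fourth and the fifth. The median log2 fold change of the 35 then turned negative in the third, as given above. It turned to -0.071, 0.16, 0.22 and 0.33 in the first, the second, the fourth and the fifth, and the cause was not tested. As given above, the covariate fit leans mainly on WT replicate 1 and Tia1+/- replicate 3.

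The covariates also turned the log2 fold change of Synpr to 1.15, -1.03, -1.10 and -2.25 in these 4, of Rims2 to 0.33 and 0.17 in the second and the fourth, of Snap25 to 0.64 in the second, of Cplx2 to -0.20 in the third and 1.04 in the fifth, and of Syt2 to 2.70 and Unc13c to 0.085 in the fourth. Unc13c was also reversed, at 0.052 and 0.054, without the 2 libraries by edgeR and DESeq2, and with 1 library left out it ran from -2.14 to 0.063, positive only without Tia1+/- replicate 3. Snap25 in PS19 against WT, near 0, ran from -0.24 to 0.19 with 1 library left out, and was positive without WT replicate 2 or 3 and without PS19 replicate 1 or 2. Without the 2 libraries, a count added after the data were seen, the groups of 12, 21 and 32 of the 35 did not overlap in the first, the third and the fourth, against 10, 1 and 7 with all libraries. Of the 465 alternative values of single genes, 401 kept their direction and side of the threshold, 46 passed it in addition and 18 were reversed.

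Leaving out 1 library passed 0 to 1, 6 to 12, 8 to 497, 0 and 0 to 1035 genes. The highest counts, 497 and 1035, came without WT replicate 3, and the interaction reached 408 without Tia1+/- replicate 3 and 243 without WT replicate 1. Of the 35, 0 to 2 passed in the interaction, 0 to 6 in P301S Tia1+/- against WT, where 6 came without WT replicate 1, and 0 in the other comparisons. Of the other presynaptic genes 0 to 1 passed in Tia1+/- against WT and 0 to 5 in the interaction. A filter of 10 counts in every library gave 15 genes in the second comparison and 0 in the interaction, and no filter gave 73 in the third and 5 in the interaction, with 0 of the 35 in each.

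Same-numbered libraries correlated above 0.1 in 7 of 18 pairs, and in all 3 pairs only for Tia1+/- with P301S Tia1+/-. The median of the 18 was -0.074, with a range of -0.55 to 0.39. With the replicate block on 12 libraries 0, 7, 9, 0 and 0 genes passed and 0 of the 35. With the replicate block on only the libraries compared, added after the data were seen, 145 genes and 2 of the 35 passed in the fourth comparison. Genes with low counts, such as Syt2 and Cplx3, are limited by depth as well as by the spread between libraries.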
